A study of Mus musculus with 3 samples.

Results

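The interferon-stimulated effector genes examined here are 42 of the 44788 gene symbols in the deposited count table, found by their symbols. They comprise 35 genes grouped as type I effectors and 7 grouped as gamma-induced GTPases (Gbp2, Gbp3, Gbp7, Igtp, Irgm1, Iigp1 and Tgtp1), and all 42 were in the table. RNA-seq read counts came from 3 libraries of spleen T lymphocytes of female BALB/c mice aged 6 to 8 weeks, isolated with magnetic beads that bind the T cell surface protein Thy1 (CD90.2) and exposed in culture to LZ-8 for 15 h. LZ-8 is an immunomodulatory protein of the fungus Ganoderma lucidum that stimulates T cells, and its dose is not given in the sources used here. The 3 libraries form 1 group in the labels, no allele or transgene is named, and cells without LZ-8 were not analysed here, so each value below is a level or a difference between genes or libraries and none is a response to LZ-8. Whether each replicate had its own mouse or culture is not stated; p-values below therefore measure only the spread among the libraries, and that spread may be technical.

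Interferons reach cells through receptor-bound JAK kinases that activate STAT factors. Type I interferons (alpha and beta) act through a complex with Stat2 and Irf9 that binds the interferon-stimulated response element (ISRE), while interferon gamma acts through the gamma-activated site (GAS) and through Irf1, which binds ISRE-like sites. The products include proteins that bind, modify or degrade viral RNA, the ubiquitin-like modifier Isg15, and the guanylate-binding proteins (GBPs) and immunity-related GTPases (IRGs) that attack the vacuoles of intracellular microbes. The division into type I effectors and gamma-induced GTPases is one of convention, since many of these genes answer to both kinds of interferon.

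The libraries held 12669690 to 19041670 counts, and the upper limit for a gene with 0 reads (3 counts) was 0.158, 0.237 and 0.204 CPM (counts per 1000000 counts) in replicates 1, 2 and 3. These limits, like the intervals below, cover counting error only. All 16 T cell markers of a fixed list were above 100 CPM. The sums were 20.1 ± 1.48 CPM (SD, n = 3) for 10 B cell markers and 0.245 ± 0.0914 CPM for 9 neutrophil markers. For 12 monocyte and macrophage markers the sum was 4.53 ± 0.380 CPM. Of that sum Cd68 made up 4.08 CPM, with 80, 46 and 65 reads in replicates 1, 2 and 3. The next highest of that list was Cd14 at 0.213 CPM, and Csf1r, C1qa, C1qc, Fcgr1 and Marco were at 0. The 8 markers of plasmacytoid dendritic cells, the blood cells that make the most type I interferon, summed to 54.1 to 61.8 CPM in the libraries, of which Pacsin1, also known from neurons, made up 47.5 ± 4.12 CPM. The others of that list were Tcf4 at 3.52, Ccr9 at 3.33, Spib at 1.56, Cox6a2 at 1.24, Ly6d at 0.221 and Siglech at 0.0263 CPM, and Klk1 at 0. The 7 markers of natural killer cells, which make interferon gamma, summed to 68.3 ± 4.40 CPM, led by Nkg7 at 37.5 and Eomes at 17.5 CPM, both also known from activated T cells. The others of that list were Klrk1 at 10.65, Klrd1 at 1.80, Klrb1c at 0.578 and Ncr1 at 0.204 CPM, and Klra8 at 0. The sums were 10.45 ± 1.14 CPM for 7 conventional dendritic cell markers, led by Zbtb46 at 9.49. They were 10.7 ± 0.216 CPM for 10 erythroid and platelet markers, led by Itga2b at 8.25. The part of these other cells in the levels below was not tested, and in bulk RNA fewer cells that express a gene cannot be told apart from less of its RNA per cell.

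The GTPase genes were the more abundant class. All 7 GTPases and 33 of the 35 type I effectors had a mean of at least 1 CPM, against 30.2% of all symbols. At 10 CPM or more stood 7 GTPases and 21 type I effectors (20.9% of all symbols), and at 100 CPM or more 6 GTPases and 7 type I effectors (5.74% of all symbols). Levels of different genes are compared here as CPM per kilobase, that is CPM divided by the length of the gene's merged exons. On that scale the median GTPase was at 43.4 and the median type I effector at 3.64, an 11.9-fold difference with nothing added to either value. The difference in median log2(CPM per kilobase + 1), type I effectors minus GTPases, was -3.21, -3.17 and -3.22 in replicates 1, 2 and 3, with a mean of -3.20 ± 0.03 (SD, n = 3). No p-value is given, because the genes were chosen by class and are not replicates. All 7 GTPases and 13 of the 35 type I effectors were above 8.26 CPM per kilobase, the median of the 12827 genes with a length and at least 1 CPM.

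The classes nevertheless overlapped. Gbp7 was the lowest GTPase, at 25.1 CPM per kilobase, and 8 type I effectors were above it and 27 below. None of the type I effectors was above Igtp, and 4 of them exceeded the median GTPase. The 7 GTPases took 50.1%, 51.1% and 50.6% of all reads of the 42 genes in replicates 1, 2 and 3. The size of the difference depended on the genes and on the scale. It was -4.10 without division by length, and -5.02 among the 19 type I effectors and 2 GTPases (Gbp2 and Irgm1) with under 5% of their 31-base words shared with transcripts of other genes.

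**Figure D1:**
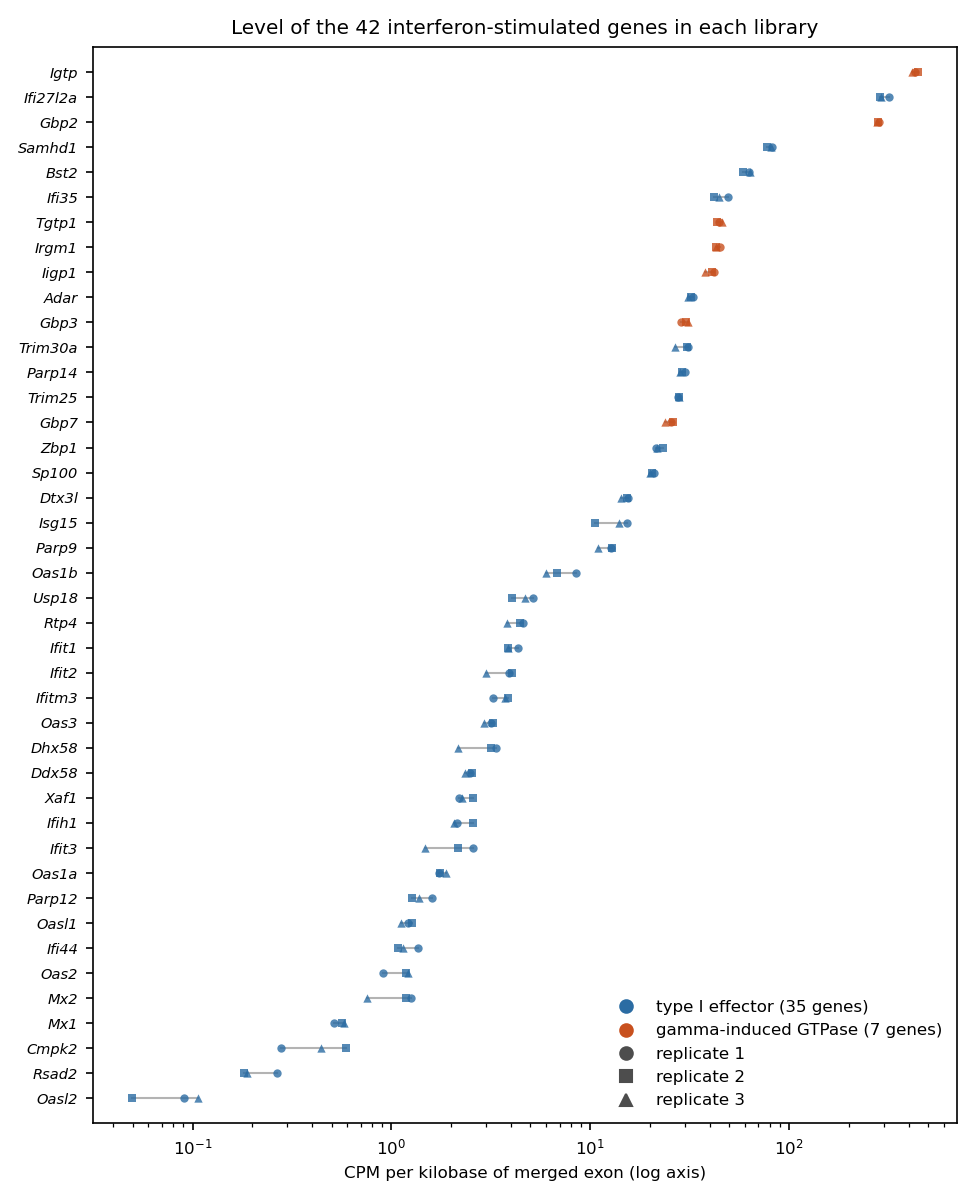
Level of each of the 42 genes in CPM per kilobase of merged exon (log axis), with 1 point for each of the 3 libraries and a grey line over their range, ordered by mean. The 7 GTPases (orange) lie between 25.1 and 429.9, and the 35 type I effectors (blue) between 0.0823 and 297.

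Igtp (Irgm3), an IRG protein that regulates the other IRGs, had the highest level of the 42 genes. Its level was 431, 443 and 416 CPM per kilobase in replicates 1, 2 and 3, above 99.1% of the genes of at least 1 CPM. Gbp2, a GTPase recruited to pathogen vacuoles, stood at 282, 278 and 276 CPM per kilobase. The 3 libraries of Igtp and those of Gbp2 did not overlap, and both genes were far above the other 5 GTPases. Gbp2 had 4.99-fold the reads of Gbp7, in the same cluster, taking 83.3%, 82.7% and 83.9% of the reads of the pair in the 3 libraries (exact Clopper-Pearson 95% intervals 82.7 to 83.8%, 82.0 to 83.4% and 83.3 to 84.6%). Per kilobase the factor was 11.1. Igtp had 3.44-fold the reads of Irgm1, a negative regulator of IRG effectors, and 9.90-fold per kilobase.

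The remaining GTPases lay close together. Tgtp1, an IRG effector known as a T cell GTPase, was at 44.1, 43.3 and 45.9 CPM per kilobase, and Irgm1 was at 44.6, 42.7 and 42.9. These libraries overlapped, so their order was not resolved. Iigp1 (Irga6), an effector that coats parasite vacuoles, was lower at 40.2 ± 2.18 CPM per kilobase (SD, n = 3) and did not overlap with Irgm1. That order depends on the length chosen. The merged exons of Iigp1 and Irgm1 are 5823 and 5810 bases, but their longest transcripts are 3121 and 3832 bases. Gbp3 was at 30.0 ± 1.22 and Gbp7 at 25.1 ± 1.25 CPM per kilobase (SD, n = 3). Gbp3 had fewer reads than Gbp7 (log2 ratio -0.52 ± 0.12) but more per kilobase (0.26), and likewise Iigp1 had more reads than Tgtp1 (0.72 ± 0.12) but not per kilobase (-0.15).

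Shared sequence limits some of these values. Of the 31-base words of Tgtp1, 84.4% also occur in transcripts of other genes, chiefly its near-identical copy Tgtp2, which was at 42.6 ± 3.71 CPM per kilobase. Tgtp1 and Tgtp2 summed to 276, 266 and 260 CPM, and the split between them is uncertain. Igtp shares 15.9% with its relatives, and its gene (chromosome 11, 58199556 to 58207591, GRCm38) overlaps Irgm2 on the same strand. The GTPases lie in clusters. Gbp7, Gbp3 and Gbp2 occupy chromosome 3 from 142530342 to 142638008, and Irgm1 and Tgtp1 lie on chromosome 11 between 48861968 and 48994172.

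The region just upstream of the GTPase genes was read for both interferon elements, because all of these genes are classed by the interferon they answer to. RefSeq promoter windows (GRCm38.p6), 250 bases before to 50 bases after the annotated start, were matched for 30 of the 42 genes (24 type I effectors and 6 GTPases). The ISRE core was searched as GAAANNGAAA on both strands (TTTCNNTTTC on the other) and the GAS as TTCNNNGAA, which reads the same on both strands; matches may overlap. The 110 bases before the start of the 6 GTPases (for Gbp2 from -110 to -41) are shown with Isg15, Ifit1 and Oas1a as type I genes of lower level, with bases in an ISRE core or GAS match in capitals.
Gbp2 (chr3:142620553-142620622, + strand): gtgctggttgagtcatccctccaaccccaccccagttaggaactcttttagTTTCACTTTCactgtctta
Gbp3 (chr3:142559934-142560043, + strand): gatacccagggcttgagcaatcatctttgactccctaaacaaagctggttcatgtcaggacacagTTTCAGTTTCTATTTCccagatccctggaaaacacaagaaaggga
Gbp7 (chr3:142530226-142530335, + strand): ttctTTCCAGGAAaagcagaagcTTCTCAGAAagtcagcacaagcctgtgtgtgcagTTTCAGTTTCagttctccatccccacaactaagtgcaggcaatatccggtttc
Igtp (chr11:58199446-58199555, + strand): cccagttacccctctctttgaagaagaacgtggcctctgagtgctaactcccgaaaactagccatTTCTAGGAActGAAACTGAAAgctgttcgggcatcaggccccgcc
Irgm1 (chr11:48871421-48871530, - strand): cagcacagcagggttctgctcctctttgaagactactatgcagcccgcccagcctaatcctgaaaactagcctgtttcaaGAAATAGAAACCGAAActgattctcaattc
Tgtp1 (chr11:48992247-48992356, - strand): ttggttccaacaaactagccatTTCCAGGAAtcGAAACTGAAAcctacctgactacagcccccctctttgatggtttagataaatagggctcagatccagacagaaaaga
Isg15 (chr4:156200819-156200928, - strand): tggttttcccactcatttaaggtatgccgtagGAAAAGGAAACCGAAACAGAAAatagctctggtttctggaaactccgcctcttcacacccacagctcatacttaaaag
Ifit1 (chr19:34640779-34640888, + strand): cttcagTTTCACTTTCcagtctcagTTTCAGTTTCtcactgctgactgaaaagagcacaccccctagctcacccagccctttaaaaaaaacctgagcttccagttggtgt
Oas1a (chr5:120907526-120907635, - strand): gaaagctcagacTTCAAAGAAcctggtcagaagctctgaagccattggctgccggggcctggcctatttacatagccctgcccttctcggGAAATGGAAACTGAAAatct

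All 6 GTPases with a window (all but Iigp1) held an ISRE core, each within the bases shown. A gene with more than 1 window was counted if any of its windows held a match. The core lay at -59 to -50 from the start in Gbp2, inside the first exon of a GENCODE transcript that begins at -61, at -53 to -44 in Gbp7 and at -34 to -25 in Igtp. The stretch shown for Irgm1 lies in an exon of a noncoding GENCODE transcript of that gene. Of the 24 type I effectors 11 held an ISRE core, and of all 27025 genes with a window 3.99% did. Counted by window, 6 of 7 held one for the GTPases, where a second Gbp3 window had none. By window it was 12 of 29 for the type I effectors and 3.44% of all 32851. A GAS match was present in 3 of the 6 GTPases (Gbp7, Igtp and Tgtp1), in 7 of the 24 type I effectors and in 9.55% of all genes. In Igtp and in Tgtp1 the GAS lay 2 bases before the ISRE core. Both motifs were present in 3 of 6 GTPases, 3 of 24 type I effectors (Bst2, Ifitm3 and Oas1a) and 0.614% of all genes.

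Within the type I effectors, genes with and without an ISRE core covered similar ranges. The 11 with an ISRE core had a median of 3.11 CPM per kilobase (0.212 to 61.7) and the 13 without one a median of 3.64 (0.0823 to 79.9). Isg15, with 3 overlapping cores from -78 to -57, was at 13.3 ± 2.47 CPM per kilobase (SD, n = 3). Gbp2, a GTPase with a single core, was at 279 ± 2.86. Other genes went the other way: Bst2 and Irgm1, with 2 cores each, were at 61.7 and 43.4 CPM per kilobase. Rsad2 and Ifih1, with 1 core each, were at 0.212 and 2.26. Whether the number of cores goes with level was not tested. A match is a description of the letters in the window and not evidence of binding.

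**Figure D2:**
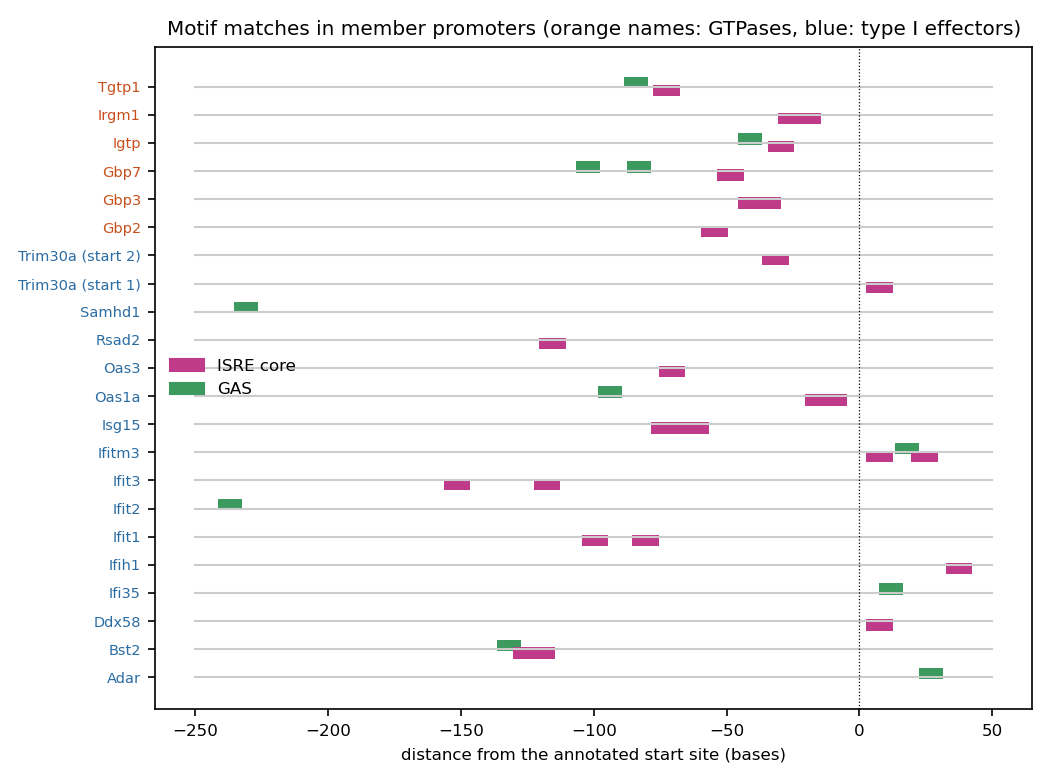
Positions of ISRE core (magenta) and GAS (green) matches from 250 bases before to 50 bases after the annotated start (0 on the axis, in bases), for each member promoter window that holds a match. All matches of the 6 GTPases (orange names) lie between -106 and -15, and those of the type I effectors (blue names) spread over the window.

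Among the type I effectors, the 9 antiviral effectors had a median of 2.07 CPM per kilobase and ranged from 0.212 (Rsad2) to 61.7 (Bst2). Ifit1, Ifit2 and Ifit3, tetratricopeptide proteins that bind viral RNA or one another, had 219, 130 and 151 reads, 290, 201 and 173 reads, and 85, 48 and 38 reads in replicates 1, 2 and 3. Their levels were 4.02 ± 0.270, 3.64 ± 0.563 and 2.07 ± 0.546 CPM per kilobase (SD, n = 3). Ifit1 and Ifit2 overlapped between libraries, and Ifit3 was below both in each library. Ifit3 shares 61.8% of its 31-base words with its copy Ifit3b, and the pair summed to 5.33 ± 0.724 CPM.

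Rsad2 (viperin, an enzyme that makes a chain-terminating nucleotide) and its neighbour Cmpk2, a nucleotide kinase that supplies it, were among the lowest of the 42 genes. Rsad2 had 22, 10 and 12 reads and Cmpk2 had 22, 31 and 27. The pair had equal reads in replicate 1 (exact 95% interval of the Rsad2 share 34.6 to 65.4%), and Rsad2 had the smaller share in the others, 24.4% (12.4 to 40.3%) and 30.8% (17.0 to 47.6%). The Mx genes, dynamin-like GTPases that trap viral particles, were also low. Mx1, whose gene carries a large deletion in most laboratory mouse strains, had 37, 27 and 32 reads, and Mx2, annotated as a polymorphic pseudogene in GENCODE, had 86, 54 and 40. Mx2 was above Mx1 in all 3 libraries (log2 ratio of Mx1 to Mx2 -0.84 ± 0.46), though in replicate 3 the exact 95% interval of the Mx1 share, 32.7 to 56.6%, included equal shares.

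The proteins that act at membranes differed from each other. Bst2 (tetherin), which holds budding virus on the cell surface, was at 62.8, 58.7 and 63.7 CPM per kilobase, the highest of the antiviral effectors. Ifitm3, which blocks the fusion of virus in endosomes, was at 3.25, 3.84 and 3.71. No library of one came near the other.

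The OAS family holds the synthetases of the oligoadenylate messenger that switches on RNase L, and relatives that lack this activity. Its 6 genes had a median of 1.49 CPM per kilobase and a highest value of 7.07 ± 1.24 (SD, n = 3), that of Oas1b. Oas1b is a flavivirus resistance gene with a premature stop in most laboratory strains and is annotated as a polymorphic pseudogene in GENCODE. It had 320, 171 and 176 reads against 62, 42 and 52 for the active synthetase gene Oas1a. Oas1a took 16.2%, 19.7% and 22.8% of the reads of that pair (exact 95% intervals 12.7 to 20.3%, 14.6 to 25.7% and 17.5 to 28.8%). Oas1a shares 68.8% of its 31-base words with other Oas1 copies, so its counts are uncertain. Oas3 was above Oas2 per kilobase by a factor of 2.83, and Oasl1 above Oasl2 by 14.4, with 60, 42 and 43 reads for Oasl1 and 11, 4 and 10 for Oasl2, the lowest of the 42 genes.

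The RNA sensors of the RIG-I family were all of similar low level. Ifih1 (MDA5) and Ddx58 (RIG-I), which detect viral double-stranded RNA, had a log2 read ratio of 0.09 ± 0.13 (SD, n = 3), and Ifih1 took 49.8%, 54.2% and 50.7% of their reads. All 3 exact 95% intervals included equal shares (45.9 to 53.6%, 49.6 to 58.6% and 46.2 to 55.2%). Dhx58 (LGP2), the family member that lacks a signalling domain, had 208, 132 and 104 reads and overlaps Dhx58os on the opposite strand. Its log2 read ratio to Ddx58 was -0.89 ± 0.28, and the sign turned to 0.22 per kilobase. Zbp1, a sensor of Z-form nucleic acid that can start cell death, was higher at 21.3, 23.3 and 21.5 CPM per kilobase. Adar, which edits adenosine to inosine in double-stranded RNA, was at 32.7, 32.1 and 31.1. The Adar exons overlap Chrnb2 on the opposite strand, and 15.4% of its 31-base words are shared.

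The 8 genes of protein modification graded from 29.4 to 1.42 CPM per kilobase, with a median of 14.1. Trim30a (29.4 ± 2.37 CPM per kilobase), Parp14 (28.96 ± 0.887) and Trim25 (27.8 ± 0.273; SD, n = 3) were the highest; Trim25 is a ubiquitin ligase that acts on RIG-I, and Parp14 attaches ADP-ribose. Dtx3l, a ubiquitin ligase, and its binding partner Parp9 were at 15.0 ± 0.588 and 12.1 ± 1.09. Parp9 took 41.2%, 41.7% and 39.2% of the reads of the pair, with a log2 ratio of -0.54 ± 0.08. The genes overlap head to head on chromosome 16 (35926511 to 35939151 for Dtx3l and 35938470 to 35972605 for Parp9), and without strand information reads in the overlap could count for either. Isg15 itself was at 15.4, 10.5 and 13.9 CPM per kilobase, while Usp18, the protease that removes Isg15 and damps the type I receptor, was at 5.16, 4.02 and 4.70. Usp18 overlaps a gene on the opposite strand. It had more reads than Isg15 (log2 ratio 0.37 ± 0.10) but less per kilobase (-1.51), and the libraries did not overlap on that scale. Parp12 was at 1.42 ± 0.173.

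The remaining type I effectors held the most abundant of the class. Ifi27l2a, a small membrane protein, stood at 316, 287 and 289 CPM per kilobase, between Igtp and Gbp2, from an exon length of 463 bases. Samhd1, which hydrolyses deoxynucleotides and so restricts retroviruses, was at 82.1, 77.1 and 80.5 CPM per kilobase and at 731 ± 23.4 CPM, the highest count of the type I effectors. Ifi35 was at 44.98 ± 3.73 and the nuclear body gene Sp100 at 20.4 ± 0.565 CPM per kilobase (SD, n = 3). Rtp4, Xaf1 and Ifi44 were at 4.28 ± 0.406, 2.34 ± 0.203 and 1.20 ± 0.148. Over the full order of 42 genes by merged exon length, 19 of the 41 neighbouring pairs had libraries that did not overlap and 22 had libraries that did. The order of neighbours can change with another length. Most of the unresolved neighbours were among the low genes, such as the run from Usp18 down to Ifitm3.

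Related genes outside the 42, in lists chosen with earlier results of these data known, were read the same way. Of 17 other interferon-induced GTPases all were above 1 CPM and 9 above 100 CPM, with a median of 22.1 CPM per kilobase. They were led in reads by Gbp2b (509 ± 9.81 CPM), Gbp4 (495 ± 8.21 CPM) and Gbp5 (416 ± 5.61 CPM; SD, n = 3). Gbp2b, Gbp4 and Gbp5 share 4.15%, 14.9% and 3.10% of their 31-base words with transcripts of other genes. Over the 17 that share runs from 0 to 99.7%, so the counts of near-identical copies are uncertain. The list also holds annotated pseudogenes. Of 42 other type I targets 37 were above 1 CPM and 9 above 100 CPM, with a median of 4.61 CPM per kilobase. Slfn2, a quiescence gene of T cells, led that list at 665 ± 5.40 CPM, while Oas1g and Ifitm1 were at 0.651 and 0.611 CPM. The 19 genes of antigen presentation and other gamma targets had a median of 64.4 CPM per kilobase and 13 above 100 CPM, with H2-D1, B2m, H2-K1 and the peptide loading gene Tapbp highest. In that list the chemokine genes Cxcl9, Cxcl10 and Cxcl11 were at 0.0700, 5.91 and 0.290 CPM and the enzyme gene Ido1 at 0.0263 CPM. Cxcl10 had 96, 80 and 94 reads, and the other three were under or near the limit for 0 reads.

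**Figure D3:**
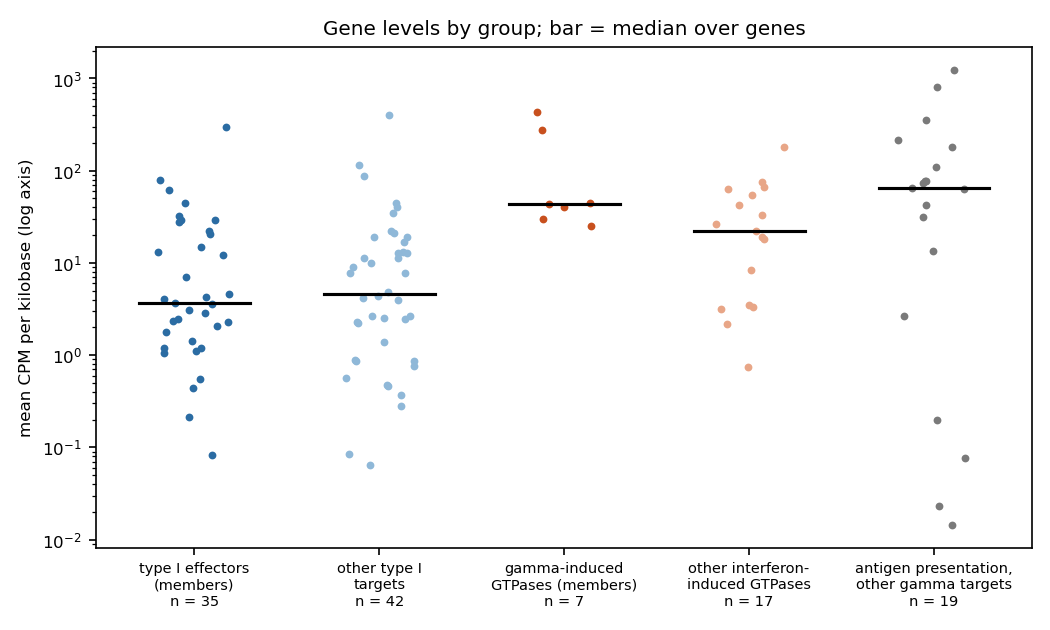
Mean CPM per kilobase of each gene (log axis) in the 2 classes of the 42 genes and in 3 further lists, with black bars at the medians over genes (3.64, 4.61, 43.4, 22.1 and 64.4 from left to right). The GTPase groups sit above the type I groups at the median, while single genes of all groups overlap.

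The upstream components were measured in the same libraries. Of 19 interferon genes, Ifng was the sole one with reads, at 12.4, 11.1 and 12.6 CPM per kilobase (305, 182 and 240 reads), and the other 18, Ifnb1 and the alpha genes included, had no read in any library. Both receptors were present, with Ifngr1 at 20.8 ± 0.349, Ifngr2 at 9.28 ± 0.167, Ifnar1 at 20.8 ± 0.624 and Ifnar2 at 9.70 ± 0.899 CPM per kilobase (SD, n = 3). Stat2, used by type I interferon, was at 19.8, 19.4 and 19.3 CPM per kilobase.

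**Figure D4:**
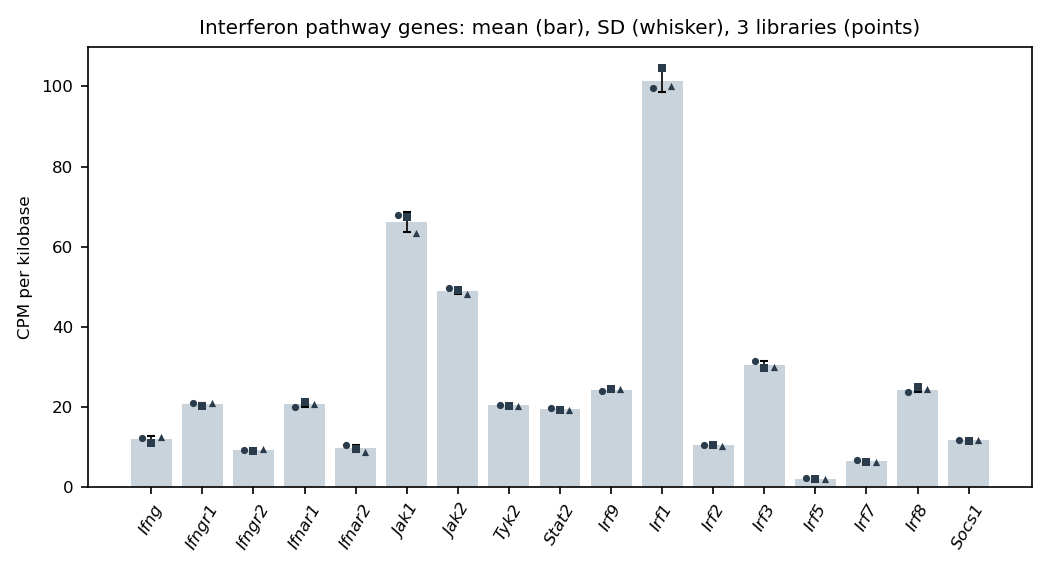
Levels of interferon pathway genes in CPM per kilobase: bars are means, whiskers the SD and points the 3 libraries. Irf1 (101) stands above the receptor genes, which lie between 9.28 and 20.8.

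The transcription factors differed in the same libraries. Irf1, a factor through which gamma acts, was at 99.6, 105 and 100.03 CPM per kilobase. It had 3.08-fold the reads of Irf9 (log2 ratio 1.62 ± 0.03) and 4.17-fold per kilobase. Which interferon, if any, had acted on the cells was not tested. Irf9, the DNA-binding part of the type I complex, was at 24.3 ± 0.259 CPM per kilobase (SD, n = 3). Irf7, which amplifies type I interferon production, was at 6.47 ± 0.370, below Irf3 at 30.5 ± 0.919. The Irf7 share of the reads of that pair was 19.3%, 18.5% and 18.9%. An exact two-sided sign-flip test over 3 libraries cannot give a p below 0.25, so none of the 17 gene pairs could pass a threshold of 0.05. Of the pairs, 15 had the same sign in every library. Irf1, Irf3 and Irf7 overlap genes on the opposite strand and Irf9 overlaps Rnf31 on its own, which without strand information can add reads.

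The libraries differed in a minority of the 42 genes. Of the 40 with at least 1 CPM in 2 or more libraries, 10 varied beyond counting noise (likelihood-ratio test in edgeR at a dispersion of 0, Benjamini-Hochberg adjusted p under 0.05), 8 type I effectors and 2 GTPases, against 13.7% of all 13500 genes tested. That test compares these libraries and not conditions, and its calls were more frequent among abundant genes: 4.65% of all tested genes from 1 to 10 CPM, 11.6% from 10 to 100 CPM and 32.5% from 100 to 1000 CPM, against 1 of 12, 4 of 15 and 5 of 13 of the 40. The median range between libraries was 0.23 log2 units for the type I effectors, 0.09 for the GTPases and 0.17 for all genes tested. These 3 values are not matched for level, and the range narrows as level rises. In the same 3 bands of CPM the median was 0.386, 0.149 and 0.087 for all genes tested. For the members it was 0.335, 0.231 and 0.081. Leaving out a library changed the count to 6 without replicate 1, 7 without replicate 2 and 4 without replicate 3, while that over all genes became 1120, 1193 and 742. These counts come from 2 libraries each, and none of the 10 genes was called in all 3 of those fits.

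Of the 10, the widest ranges belonged to low type I effectors. Dhx58 was at 10.9, 10.4 and 7.07 CPM, with a range of 0.62 log2 units (edgeR adjusted p = 0.00903), lowest in replicate 3. Isg15 was at 11.6, 7.97 and 10.5 CPM (0.54, edgeR adjusted p = 0.0445), lowest in replicate 2, and it was not called without the filter on low counts. Oas1b was at 16.8, 13.5 and 11.96 CPM (0.48, edgeR adjusted p = 0.0114), highest in replicate 1. The other 5 type I effectors called (Parp9, Ifi35, Trim30a, Ifi27l2a and Samhd1) had ranges of 0.09 to 0.23. Cmpk2, Ifit3 and Mx2 had wider ranges of 1.09, 0.78 and 0.72 and were not called (edgeR adjusted p = 0.109, 0.0895 and 0.0995). The GTPases called were Iigp1, at 245, 238 and 220 CPM (0.14, edgeR adjusted p = 0.00133), and Igtp, at 871, 895 and 842 CPM (0.08, edgeR adjusted p = 0.00162).

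Replicate 1 was more often the highest library and replicate 3 the lowest. Replicates 1, 2 and 3 were highest for 21, 12 and 7 of the 40 genes, against 32.6%, 34.8% and 32.6% of all genes tested. They were lowest for 9, 11 and 20 of the 40, against 29.6%, 33.5% and 36.9% of all genes tested. Of the 10 genes called, 8 were highest in replicate 1 (all but Parp9 and Igtp), none was lowest there, and 6 were lowest in replicate 3. The same split over all 1847 genes called was not computed, so whether the 10 differ from them is not known. Gbp2 differed by 0.02 log2 units, with 709, 700.5 and 695 CPM, and Trim25 by 0.04, with 158, 160 and 162 CPM. For both, the SD over the libraries, 1.02% and 0.983% of the mean, was close to or under the 0.974% and 2.04% that counting alone gives.

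**Figure D5:**
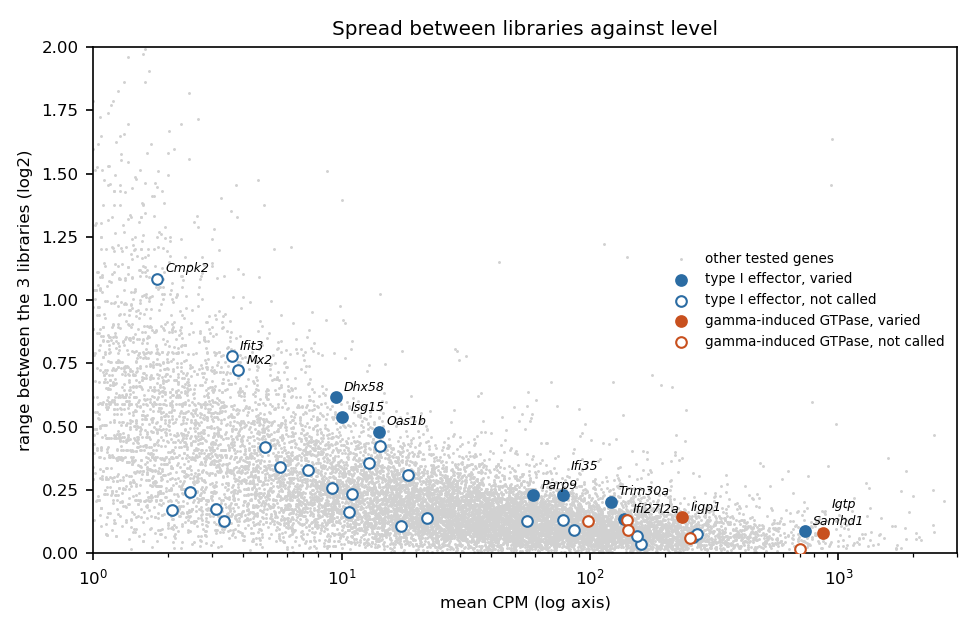
Range between the 3 libraries in log2 units against mean CPM (log axis) for the 40 tested members and the other tested genes (grey; 9 genes with a range above 2 and 7 above 3000 CPM lie outside the axes). Filled circles varied between libraries and open ones were not called; the range narrows from left to right for members and other genes alike.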

How the data were processed

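RNA of 3 libraries was counted per gene symbol. The deposited values are raw read counts, 1 column a library. Build mm10 is named per the submitters' processing notes; how reads were aligned, counted, annotated and assigned to strands is not stated there. CPM scales each library's counts to a total of 1000000. Exon lengths, positions and shared 31-base words (either strand) were taken from GENCODE vM21 (GRCm38, equivalent to mm10), with a model for 42 of 42 members. Fold values on the log2 scale used a pseudocount of 1, and read ratios 0.5.

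EdgeR's quasi-likelihood test needs a contrast between groups, which 1 group does not give. Variation between libraries was tested in edgeR 4.0.16 (R 4.3.3, glmFit with dispersion 0, TMM factors 0.996 to 1.003), for genes reaching 1 CPM in 2 or more libraries. On simulated Poisson counts of 13500 genes the test found 72 of 100 genes altered by 1.5-fold in 1 library, 93 of 100 altered by 2-fold, and called 9 unaltered genes. The altered library was replicate 1, the one with the most counts. The simulated counts had no spread beyond counting error, so they cannot give the rate of false calls in the real libraries. DESeq2 1.42.0 size factors were an alternative.

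All 42 members, the 2 highest markers and the genes of 17 pairs could be named. So could the 4 highest genes, receptors, interferon regulatory factors, interferon genes and unread genes of the pathway lists. Marker genes at 0, overlapping genes and the plasmacytoid dendritic and natural killer cell markers were singled out after their values were seen. So were Cxcl9, Cxcl10, Cxcl11, Ido1, Oas1g, Ifitm1 and Tgtp2. The members and lists were chosen with earlier results of these data known. All 213 list entries were in the table, 3 under an older symbol. 1 gene is not reported here.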

Additional observations from a re-analysis of the deposited data

How the results depend on the processing

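No paired analysis was possible because only 1 group was sequenced. On the scale of log2(CPM per kilobase + 1), the type I median, the GTPase median and their difference were 2.27, 5.47 and -3.20. They were 3.78, 7.88 and -4.10 without division by length; 2.45, 6.06 and -3.61 with the longest transcript as length; 2.87, 6.13 and -3.26 as means; and 1.97, 5.44 and -3.47 with a pseudocount of 0.1. Among members of at least 1 CPM the type I median was 2.34 and the difference -3.13. Among members with under 5% shared 31-base words (19 and 2 genes) the values were 1.78, 6.80 and -5.02. DESeq2 size factors and leaving out a library moved none of the 3 by more than the SD between libraries, and the difference was negative under each of these settings. The 40 members at 1 CPM or more stayed 40 under each of its settings. The count of members that varied was 9 to 11 under other scalings and filters, and 4 to 7 with a library left out (main count 10); over all genes it was 742 to 1193 with a library left out (main count 1847). Those fits have fewer samples. Per kilobase 5 of 17 read ratios turned sign: Ifih1 to Ddx58 (-0.12), Dhx58 to Ddx58 (0.22), Usp18 to Isg15 (-1.51), Gbp3 to Gbp7 (0.26) and Iigp1 to Tgtp1 (-0.15). The other settings turned none. Depth limits the genes with few reads, Oasl2 and Rsad2 most of all.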
